A study of Mus musculus with 8 samples.

Results

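The genes described here encode chaperones of the endoplasmic reticulum (ER) and the sensors, transcription factors and effectors of the unfolded protein response. They were chosen by name from a list of 35 genes, of which 34 stood among the 16122 genes of the deposited table of liver mRNA counts. Edem1 was not analysed here. Of the 34, 33 passed the filter on low counts and were tested, and the other, Atf5, had 29 counts in all NASH libraries and 31 in all WT libraries.

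The ER folds secreted and membrane proteins, and hepatocytes, which secrete most plasma proteins, carry a large ER. When unfolded proteins build up, the membrane sensors IRE1 (gene Ern1), PERK (Eif2ak3) and ATF6 are activated. IRE1 splices the Xbp1 mRNA, PERK phosphorylates the initiation factor eIF2 and so favours translation of ATF4, and ATF6 is cleaved to release a transcription factor. The resulting factors raise transcription of chaperones, of genes for ER-associated degradation and, in the PERK and ATF4 arm, of amino acid and stress genes that include Ddit3 (CHOP). Splicing, phosphorylation, cleavage and translation are not seen in counts per gene, so the activity of the sensors was not measured here.

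Bulk RNA sequencing compared 4 liver libraries labelled NASH (nonalcoholic steatohepatitis) with 4 labelled WT, all from male mice of the inbred C57BL/6J strain. Every animal carries the wild-type genotype, and the mice were bought at 8 weeks of age and kept for 28 weeks on food high in fat, in cholesterol and in fructose, or on a normal diet. No label states which diet each group received, and taking NASH to be the high-fat one is an interpretation. The table heads the WT columns as controls with the same numbers 1 to 4, and separate animals per library are not stated, so every p-value here reflects only how far these libraries differ among themselves, and that spread may be technical.

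Counts per library summed to between 25760117 and 28274613 in NASH and between 27204662 and 32684719 in WT. Levels are given as CPM, the library's counts brought to a common depth, scaled by the trimmed mean of M-values (TMM). Markers of hepatocytes were abundant in all 8 libraries, with summed levels of 50530 to 107800 CPM over 9 genes in NASH and 151100 to 182200 CPM in WT. Of the 9 genes, 0 were higher and 1 was lower past the threshold, and Alb made up 62.7 to 80.8% of each sum. Without Alb the sums were 18840 to 30550 CPM in NASH and 34290 to 38880 CPM in WT. NASH replicate 3 had the lowest sum, and a lower sum cannot be told apart between fewer hepatocytes and less RNA per hepatocyte. The 9 genes did not fall alike, with log2 fold changes from −1.34 for Serpina1c to −0.03 for Fgb. In NASH replicate 3 Fgb stood at 7089 CPM, above the WT range of 5932 to 6988 CPM. Macrophage markers summed to 560 to 2556 CPM in NASH against 135 to 389 CPM in WT, with 6 of 9 genes higher and the largest sum in NASH replicate 3. Stellate cell and fibroblast markers summed to 620 to 1699 CPM in NASH and 349 to 478 CPM in WT, with 7 of 9 higher. The exact permutation p was 0.0286 for each of these 3 sums, the smallest that 4 libraries against 4 allow, and 0.0571 after Benjamini-Hochberg adjustment over 10 lists. WT replicate 4 stood apart in another respect: it had the highest level in its group of all 13 immediate-early and cytosolic heat-shock genes examined, with Fos at 576 CPM against 1.92 to 8.38 CPM in the other WT libraries. Summed over the 13 genes, levels were 1327 to 1871 CPM in NASH and 2278 to 5253 CPM in WT (exact permutation p = 0.0286, adjusted 0.0571). Hspa8 alone stood at 1082 to 1515 CPM in NASH and 1988 to 2587 CPM in WT, most of the sum except in WT replicate 4. It was the only gene of this list past the threshold, and it was lower in NASH. Sums without Hspa8 were not compared, so the difference is not one of the list as a whole. Plasma cell and B cell marker sums overlapped, at 160.5 to 254 CPM in NASH and 158 to 200.3 CPM in WT, of which Sdc1 made up 86.7 to 96.5%. Sums for T cells, neutrophils, endothelium and cholangiocytes overlapped as well. Of the pancreatic acinar list only 2 genes were in the table, and their sum, nearly all Cela1, was 3.90 to 4.69 CPM in NASH and 6.53 to 12.0 CPM in WT (exact permutation p = 0.0286, adjusted 0.0571). Values without NASH replicate 3 or WT replicate 4 are given where they change a call or a size.

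Letters of the known response elements of the pathway were searched in the promoters of the members, and the matches are shown here because the members fall into the arms that these elements define. RefSeq promoter windows (build GRCm38.p6, 250 bases before to 50 bases after an annotated start) were found for 30 of the 34 members, in 32 windows. The ER stress response element (ERSE), CCAAT and CCACG with 9 bases between them, is bound by ATF6 with the factor NF-Y. On either strand it stood in 9 of the 32 windows (28.1%), against 0.119% of all 32851 windows. All matches are given below in the direction of the element, with CCAAT and CCACG in capitals, and Hsp90b1 had a pair of them.
Hspa5: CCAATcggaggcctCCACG
Calr: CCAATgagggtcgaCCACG
Derl3: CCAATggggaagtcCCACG
Hsp90b1: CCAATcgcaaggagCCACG
Hsp90b1: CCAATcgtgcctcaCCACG
Canx: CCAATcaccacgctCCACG
Pdia6: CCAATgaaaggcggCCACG
Dnajc3: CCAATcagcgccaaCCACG
Creld2: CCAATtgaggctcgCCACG
Syvn1: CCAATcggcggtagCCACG

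Of the 9 genes, Hspa5, Hsp90b1, Canx, Calr, Pdia6, Dnajc3 and Creld2 encode chaperones or folding enzymes, and Derl3 and Syvn1 act in ER-associated degradation. The shorter element ERSE-II, ATTGG and CCACG with 1 base between them, was found in Herpud1 and Dnajb11, against 0.0365% of all windows. The core of the XBP1 element, TGACGTG, occurred in Hspa5 alone (2.01% of all windows), and the cyclic AMP element TGACGTCA in Ppp1r15a alone (1.79% of all windows). No matches of different elements overlapped within a member's window. A match is a description of the letters and does not show binding.

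Elements of the ATF4 arm had another distribution among the members. The C/EBP-ATF element, TGATGNAA, by which ATF4 acts with C/EBP partners, was present on either strand in Chac1, Trib3, Atf3, Asns and Herpud1, which is 15.6% of the members' windows and 3.97% of all windows. No ERSE, ERSE-II or C/EBP-ATF match was found in the Eif2ak3 window or in either Creb3l3 window. The windows of Hspa5 (chr2:34771840-34772139, plus strand), Herpud1 (chr8:94386179-94386478, plus strand), Chac1 (chr2:119350992-119351291, plus strand) and Trib3 (chr2:152344011-152344310, minus strand) are printed below, 5′ to 3′ on the gene's strand. Capitals mark the ERSE in Hspa5, the ERSE-II and the C/EBP-ATF element in Herpud1, and the C/EBP-ATF element in Chac1 and Trib3, which in these 3 genes lies on the opposite strand. With the annotated start at 0, the ERSE of Hspa5 spans −65 to −47, the ERSE-II of Herpud1 −52 to −42, and the C/EBP-ATF elements −112 to −105 in Herpud1, −193 to −186 in Chac1 and 14 to 21 in Trib3.
Hspa5: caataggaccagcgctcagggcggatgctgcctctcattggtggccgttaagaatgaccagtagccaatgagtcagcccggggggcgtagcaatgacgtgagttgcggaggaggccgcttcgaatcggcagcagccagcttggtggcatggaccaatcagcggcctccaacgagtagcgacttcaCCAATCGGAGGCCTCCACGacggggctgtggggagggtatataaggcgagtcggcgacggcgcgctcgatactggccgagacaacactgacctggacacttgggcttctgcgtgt
Herpud1: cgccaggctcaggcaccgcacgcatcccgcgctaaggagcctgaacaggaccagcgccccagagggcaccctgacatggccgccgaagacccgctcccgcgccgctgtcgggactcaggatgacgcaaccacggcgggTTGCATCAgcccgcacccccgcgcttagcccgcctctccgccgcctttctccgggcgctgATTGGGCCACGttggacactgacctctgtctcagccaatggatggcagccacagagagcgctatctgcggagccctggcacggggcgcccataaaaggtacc
Chac1: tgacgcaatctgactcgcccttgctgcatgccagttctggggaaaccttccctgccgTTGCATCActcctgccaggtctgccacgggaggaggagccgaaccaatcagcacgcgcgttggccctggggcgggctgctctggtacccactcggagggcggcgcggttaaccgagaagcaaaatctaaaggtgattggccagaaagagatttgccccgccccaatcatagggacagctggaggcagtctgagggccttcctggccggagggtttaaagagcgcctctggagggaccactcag
Trib3: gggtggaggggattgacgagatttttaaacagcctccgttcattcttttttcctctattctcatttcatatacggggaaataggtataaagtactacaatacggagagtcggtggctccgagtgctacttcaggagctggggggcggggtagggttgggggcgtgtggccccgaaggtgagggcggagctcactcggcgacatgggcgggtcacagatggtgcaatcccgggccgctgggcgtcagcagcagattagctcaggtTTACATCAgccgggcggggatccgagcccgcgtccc

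Chaperones and disulfide isomerases did not differ between NASH and WT livers beyond the spread of the libraries, while 5 regulators and effectors did. Eif2ak3, Trib3 and Chac1 were higher in NASH, and Creb3l3 and Herpud1 were lower. Thus 5 of 33 members tested passed edgeR's quasi-likelihood test (adjusted p under 0.05), a share of 15.2%, against 18.9% of all 12351 genes tested. By direction, 3 were higher, where 12.9% of all genes were, and 2 were lower, where 6.0% were. The members' share was thus near the background. The median log2 fold change of the members was 0.00024, and that of all genes tested was 0.01. For 6 members (these 5 and Derl1) every NASH library lay on 1 side of every WT library, as it did for 26.8% of all genes. When libraries were scaled by their totals and not by TMM, the median of all genes was 0.37 and that of the members 0.40, and 93.3% of all calls were higher, against 68.3% with TMM. Without WT replicate 1, 0 members and 821 of all genes passed, against 5 members and 2338 genes with all libraries. Only 1 member was higher without WT replicate 3, and 0 members were lower if NASH replicate 4 or either of WT replicates 3 and 4 was left out, and 1 without NASH replicate 3 or WT replicate 2.

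**Figure D1:**
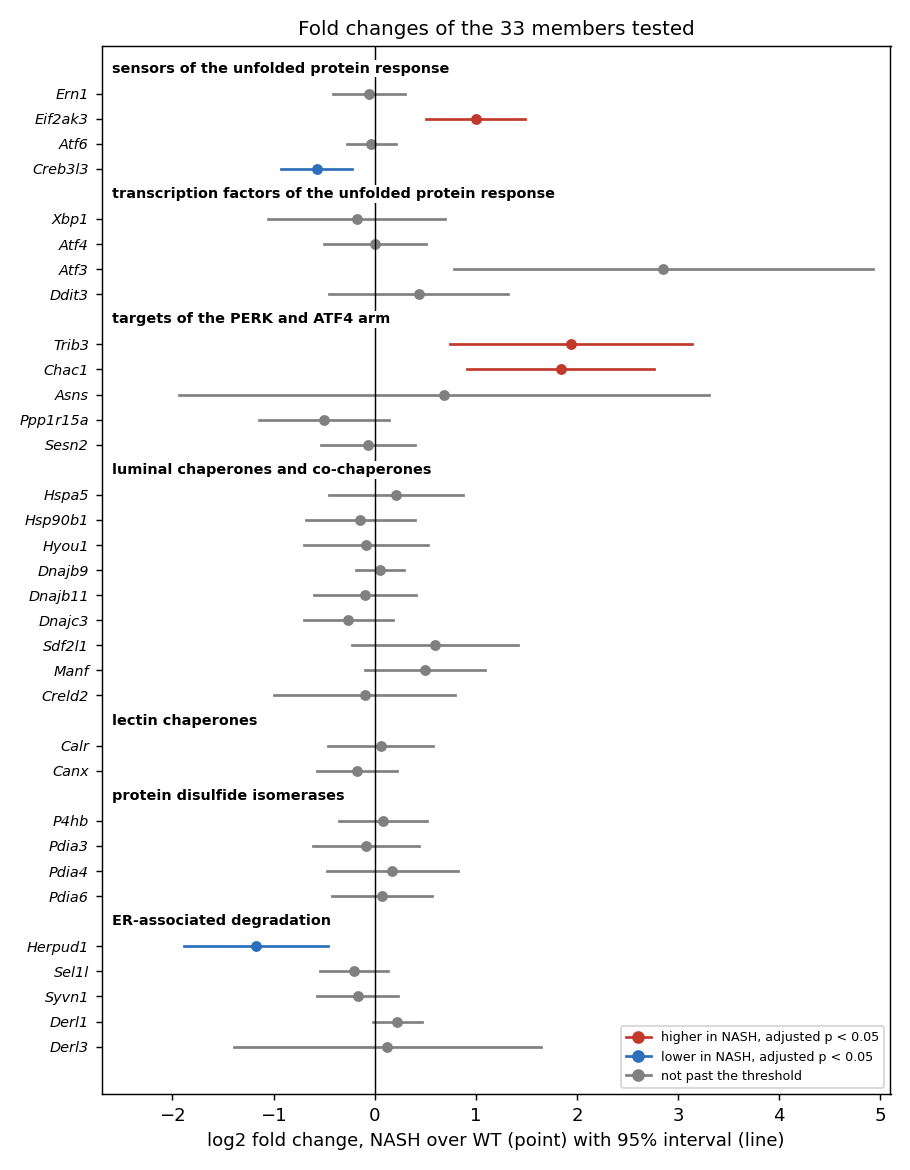
Log2 fold change of NASH over WT for each of the 33 members tested, grouped by role, with the 95% interval of edgeR's quasi-likelihood fit as a line. Eif2ak3, Trib3 and Chac1 lie to the right of 0 and Creb3l3 and Herpud1 to the left past the threshold, while the intervals of the 15 chaperones and isomerases all span 0.

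Among the membrane sensors, only Eif2ak3 was higher in NASH. Eif2ak3 (ENSMUSG00000031668, chromosome 6, 70844515 to 70905245, GENCODE M21 on GRCm38) stood at 21.2, 29.0, 43.7 and 22.3 CPM in NASH replicates 1 to 4, against 14.2, 14.0, 14.5 and 15.5 CPM in WT replicates 1 to 4. The lowest NASH library was above the highest WT library, and NASH replicate 3 was the highest. An unclassified gene on the opposite strand, Gm43292, overlaps 8.05% of its exon bases, and reads from the 2 cannot be told apart if counting ignored strand. The log2 fold change was 1.00 ± 0.22 (SE), with 95% interval 0.51 to 1.49 and edgeR adjusted p = 0.0163. It passed in 13 of 15 alternative analyses (adjusted p 0.00072 to 0.0545). It did not pass without WT replicate 1 (0.054) or with a block on replicate number (0.0545).

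Ern1, which encodes the kinase and endonuclease IRE1, had 42.7, 45.9, 72.1 and 51.7 CPM in NASH replicates 1 to 4 and 55.1, 54.9, 51.8 and 59.0 CPM in WT replicates 1 to 4. NASH replicate 3 was above and replicates 1, 2 and 4 were below every WT library, replicate 4 only just. The groups thus overlapped through replicate 3 (log2 fold change −0.05, 95% interval −0.41 to 0.30, edgeR adjusted p = 0.827). Without NASH replicate 3 the log2 fold change was −0.25 (edgeR adjusted p = 0.123). Atf6 had 148.6, 154.5, 159.1 and 142.5 CPM in NASH replicates 1 to 4 and 159.1, 162.9, 154.5 and 142.5 CPM in WT replicates 1 to 4. All its libraries lay close together, with the narrowest interval of the sensors, −0.27 to 0.21 around a log2 fold change of −0.03 (edgeR adjusted p = 0.845).

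Creb3l3 (ENSMUSG00000035041, chromosome 10, 81084324 to 81098874), the liver-enriched membrane-bound factor CREBH, which is cleaved like ATF6 and acts on lipid and acute phase genes, was lower in NASH. It had 184, 187, 132 and 168 CPM in NASH replicates 1 to 4, against 259.5, 208, 261 and 272 CPM in WT replicates 1 to 4. All 4 NASH libraries lay below the WT libraries, of which replicate 2 came nearest. This gave a log2 fold change of −0.57 ± 0.16 (SE), with 95% interval −0.93 to −0.22 and edgeR adjusted p = 0.0341. The call was lost without NASH replicate 4 (0.0791), WT replicate 1 (0.095), WT replicate 3 (0.0866) or WT replicate 4 (0.0856). It was also lost without NASH replicate 3 and WT replicate 4 together (0.0857), with library totals alone (0.165) and with a block on replicate number. Creb3l3 passed in 8 of 15 alternatives. The hepatocyte marker sums were also lower in the NASH libraries, and NASH replicate 3 was lowest in both. Within WT, replicate 4 had the highest Creb3l3 level and the lowest sum (151100 CPM), and replicate 2 the reverse (182200 CPM). The part of the hepatocyte markers in the fall of Creb3l3 was not tested.

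**Figure D2:**
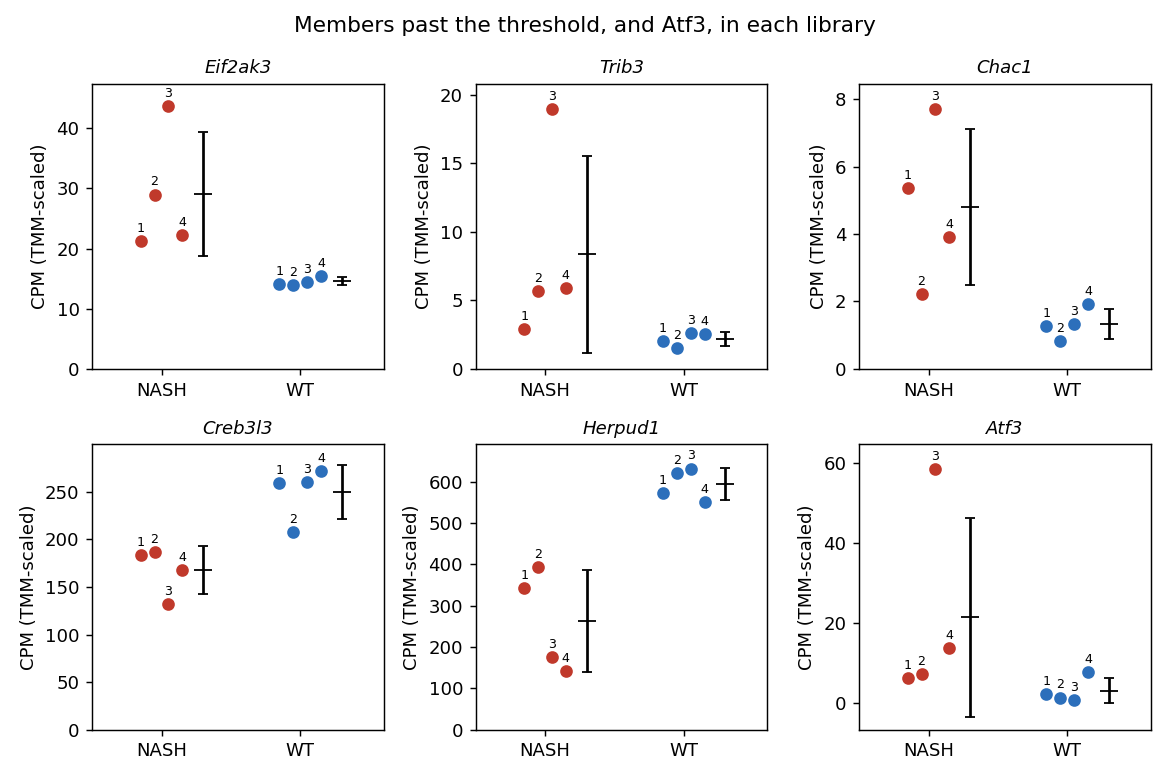
CPM after TMM scaling in each of the 4 NASH libraries (left) and 4 WT libraries (right) for the 5 members past the threshold and for Atf3. Numbers give the replicate, and bars give the mean and SD. NASH replicate 3 is the highest library for Eif2ak3, Trib3, Chac1 and Atf3, and the groups overlap for Atf3 alone.

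Transcription factors of the response did not pass the test, in 4 of 4 tested. Xbp1, whose spliced form drives chaperone and degradation genes, had 18.2, 10.3, 21.1 and 17.1 CPM in NASH replicates 1 to 4 and 13.4, 12.3, 12.6 and 37.3 CPM in WT replicates 1 to 4. WT replicate 4 stood above all other libraries. The log2 fold change was −0.18 (95% interval −1.05 to 0.69, edgeR adjusted p = 0.765) and 0.38 without WT replicate 4. Total counts do not separate the spliced from the unspliced form.

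Atf4 had 73.7, 67.0, 107 and 68.3 CPM in NASH replicates 1 to 4 and 82.5, 60.0, 63.2 and 111 CPM in WT replicates 1 to 4, so that NASH replicate 3 and WT replicate 4 were the highest libraries of their groups and nearly level. Its log2 fold change was 0.00024 (95% interval −0.51 to 0.51, edgeR adjusted p = 0.999). ATF4 is controlled mainly by translation, which was not measured. Ddit3, the gene of the death-associated factor CHOP, had 6.54, 5.59, 17.1 and 6.91 CPM in NASH replicates 1 to 4 and 6.07, 5.03, 5.31 and 10.4 CPM in WT replicates 1 to 4. Apart from NASH replicate 3 and WT replicate 4, all libraries lay between 5.03 and 6.91 CPM (log2 fold change 0.43, 95% interval −0.45 to 1.31, edgeR adjusted p = 0.444, and −0.09 without NASH replicate 3).

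Atf3, a stress-induced repressor and activator downstream of ATF4, had the largest log2 fold change of the members and did not pass. It stood at 6.07, 7.07, 58.4 and 13.7 CPM in NASH replicates 1 to 4, against 2.19, 1.28, 0.72 and 7.59 CPM in WT replicates 1 to 4. NASH replicates 1 and 2 lay below WT replicate 4, and above the other WT libraries. The log2 fold change was 2.85 ± 0.92 (SE), with edgeR adjusted p = 0.0581. It was 3.94 without WT replicate 4 (0.0419), 1.58 without NASH replicate 3 (0.185) and 2.68 without both (0.0263). Atf3 passed in 5 of 15 alternatives, which also include the omission of NASH replicate 1 (0.0257), DESeq2 (0.0226) and library totals alone (0.0349). Atf3 is also an immediate-early gene, and it was high in the library with the Fos level given above. Atf5, a factor related to ATF4, lay at 0 to 0.38 CPM in NASH and 0.08 to 0.62 CPM in WT.

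Targets of the PERK and ATF4 arm were higher in 2 of 5 tested. Trib3 (ENSMUSG00000032715, chromosome 2, 152337422 to 152344032), a pseudokinase that restrains ATF4 and insulin signalling, had 2.92, 5.70, 18.9 and 5.88 CPM in NASH replicates 1 to 4, against 2.06, 1.53, 2.60 and 2.52 CPM in WT replicates 1 to 4. NASH replicate 1 was close to the WT range and replicate 3 was far above the other libraries. The log2 fold change was 1.94 ± 0.53 (SE), with 95% interval 0.75 to 3.14 and edgeR adjusted p = 0.0345. It was 1.13 without NASH replicate 3, where it still passed (0.0432). The call was lost without NASH replicate 4 (0.0578) or WT replicates 1 (0.0935), 2 (0.0877), 3 (0.0743) or 4 (0.074). It was also lost without NASH replicate 3 and WT replicate 4 together (0.0738), with limma-voom (0.1) and with a block on replicate number. Trib3 passed in 7 of 15 alternatives (0.00172 to 0.1).

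Chac1 (ENSMUSG00000027313, chromosome 2, 119351229 to 119354381), an enzyme that breaks down glutathione, had 5.36, 2.22, 7.71 and 3.92 CPM in NASH replicates 1 to 4, against 1.26, 0.84, 1.34 and 1.92 CPM in WT replicates 1 to 4. All NASH libraries were above all WT libraries, and NASH replicate 2 was the nearest to them. Its log2 fold change was 1.84 ± 0.41 (SE), with 95% interval 0.91 to 2.76 and edgeR adjusted p = 0.0178. It passed in 13 of 15 alternatives and not without WT replicate 1 (0.058) or WT replicate 3 (0.0531).

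The other 3 genes of this arm did not pass. Asns, asparagine synthetase, spread over 0.28 to 13.5 CPM in NASH and 0.10 to 7.14 CPM in WT. Its log2 fold change of 0.69 had the widest 95% interval of the members, −1.93 to 3.30. Ppp1r15a (GADD34), the phosphatase subunit that ends eIF2 phosphorylation, averaged 17.9 ± 6.45 CPM in NASH and 25.4 ± 8.50 CPM in WT (SD, n = 4 each). WT replicate 4 had the highest Ppp1r15a level of all 8 libraries, at 37.2 CPM. Sesn2, a stress-induced inhibitor of mTORC1, averaged 10.3 ± 2.67 CPM in NASH and 10.8 ± 1.52 CPM in WT (SD, n = 4 each).

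Luminal chaperones and co-chaperones showed no change that passed, in 9 of 9 tested. Hspa5 (ENSMUSG00000026864, chromosome 2, 34771970 to 34777547), which encodes BiP, the main Hsp70 chaperone of the ER and the sensors' brake, had 1064, 963, 1942 and 1384 CPM in NASH replicates 1 to 4 and 1220, 1088, 1536 and 781 CPM in WT replicates 1 to 4. The groups overlapped, with NASH replicate 3 the highest library and WT replicate 4 the lowest. The log2 fold change was 0.21 ± 0.30 (SE), with 95% interval −0.45 to 0.87 and edgeR adjusted p = 0.631. Hsp90b1 (GRP94), the ER member of the Hsp90 family, averaged 1416 ± 304 CPM in NASH and 1562 ± 301 CPM in WT (SD, n = 4 each), and its interval was −0.68 to 0.40. Other annotated genes overlap 15.7% of the exon bases of Hsp90b1, 10.9% of those of Ddit3 and 9.25% of those of Manf, so these levels may include reads of their neighbours.

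Hyou1 (GRP170), the nucleotide exchange factor of BiP, averaged 213 ± 45.5 CPM in NASH and 226 ± 85.5 CPM in WT. Of the J-domain partners of BiP, Dnajb9 (ERdj4) stood at 88.1 ± 8.85 CPM in NASH and 85.0 ± 5.40 CPM in WT, and its interval of −0.19 to 0.29 was the narrowest of the 9 (SD, n = 4 each). Dnajb11 (ERdj3) had a log2 fold change of −0.10 (−0.60 to 0.40) and Dnajc3 (P58IPK), which also inhibits PERK, of −0.26 (−0.70 to 0.18). The highest values belonged to Sdf2l1, a partner of Dnajb11, at 0.60 (−0.23 to 1.42, edgeR adjusted p = 0.266), and to Manf, a secreted ER stress protein, at 0.50 (−0.10 to 1.09, edgeR adjusted p = 0.202). Manf averaged 73.9 ± 21.5 CPM in NASH and 52.3 ± 16.8 CPM in WT, and the groups overlapped (SD, n = 4 each). Creld2, a disulfide isomerase-like ER stress gene, ranged over 29.9 to 82.3 CPM in NASH and 29.1 to 102 CPM in WT.

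The lectin chaperones, which hold glycoproteins during folding, also did not pass. Calr (calreticulin) averaged 851 ± 182 CPM in NASH and 818 ± 166 CPM in WT, and Canx (calnexin) 617 ± 83.6 CPM in NASH and 696 ± 67.1 CPM in WT (SD, n = 4 each). Their 95% intervals were −0.46 to 0.58 and −0.57 to 0.22 on the log2 scale. The disulfide isomerases P4hb, Pdia3, Pdia4 and Pdia6, which form and rearrange disulfide bonds, had log2 fold changes of 0.08, −0.08, 0.17 and 0.07, with bounds between −0.61 and 0.82. P4hb, also a subunit of prolyl 4-hydroxylase, averaged 1426 ± 186 CPM in NASH and 1348 ± 143 CPM in WT (SD, n = 4 each). Across all 15 chaperones and isomerases the lowest 95% bound was −0.99, for Creld2, and the highest was 1.42, for Sdf2l1, and each gene's changes within its own interval cannot be told from none. Their smallest edgeR adjusted p was 0.202.

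In ER-associated degradation, 1 of 5 genes tested was lower and 4 did not pass. Herpud1 (ENSMUSG00000031770, chromosome 8, 94386438 to 94395377), a membrane scaffold of the HRD1 ubiquitin ligase complex, had 343, 393, 175 and 142 CPM in NASH replicates 1 to 4, against 572, 621, 632 and 551 CPM in WT replicates 1 to 4. The NASH libraries lay below all WT libraries, and replicates 3 and 4 were much lower than replicates 1 and 2. This gave a log2 fold change of −1.17 ± 0.32 (SE), with 95% interval −1.89 to −0.46 and edgeR adjusted p = 0.0331. In each single omission its log2 fold change lay between −1.45 and −0.98, but the call was lost without NASH replicates 3 (0.0505) or 4 (0.066), WT replicates 1 (0.0775), 2 (0.0735), 3 (0.079) or 4 (0.0671), or NASH replicate 3 and WT replicate 4 together (0.0916). A block on replicate number also ended the call.

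Sel1l and Syvn1, the adaptor and the ligase of the HRD1 complex, had log2 fold changes of −0.21 (−0.54 to 0.13) and −0.17 (−0.57 to 0.23). Derl1, a channel component, had 103 to 121 CPM in NASH and 82.9 to 101 CPM in WT. These groups did not overlap, yet the log2 fold change of 0.22 (−0.02 to 0.47) did not pass (edgeR adjusted p = 0.17). Derl3, a related gene that is abundant in plasma cells, had 1.52 to 6.57 CPM in NASH and 1.29 to 9.25 CPM in WT, with its highest level in WT replicate 3. The plasma cell genes Jchain and Mzb1 lay in that library within the range of the other WT libraries, which was 4.86 to 7.40 CPM for Jchain and 0.04 to 0.63 CPM for Mzb1.

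Levels differed far more between members than between groups. Ordered by the mean over all 8 libraries per kilobase of annotated exon, the 5 highest were P4hb, Hsp90b1, Hspa5, Calr and Pdia3, at 499, 351, 316, 296 and 237 CPM per kilobase in NASH and 471, 388, 273, 284 and 251 CPM per kilobase in WT. In WT alone Herpud1 lay above Pdia3. Neighbours among the 5 highest differed by less than the larger of their SDs, except P4hb against Hsp90b1 in both groups and Hsp90b1 against Hspa5 in WT. Herpud1 came next over all 8 libraries, at 113 ± 53.0 CPM per kilobase in NASH and 255 ± 16.6 CPM per kilobase in WT (SD, n = 4 each). The sensors IRE1, PERK and ATF6 had lower mRNA levels, with Atf6 at 16.4, Ern1 at 6.50 and Eif2ak3 at 4.82 CPM per kilobase in NASH and 16.8, 6.76 and 2.41 CPM per kilobase in WT. By the same mean, Trib3, Chac1, Derl3 and Asns were the lowest members tested, at 1.71 to 3.93 CPM per kilobase in NASH and 0.82 to 1.77 CPM per kilobase in WT.

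**Figure D3:**
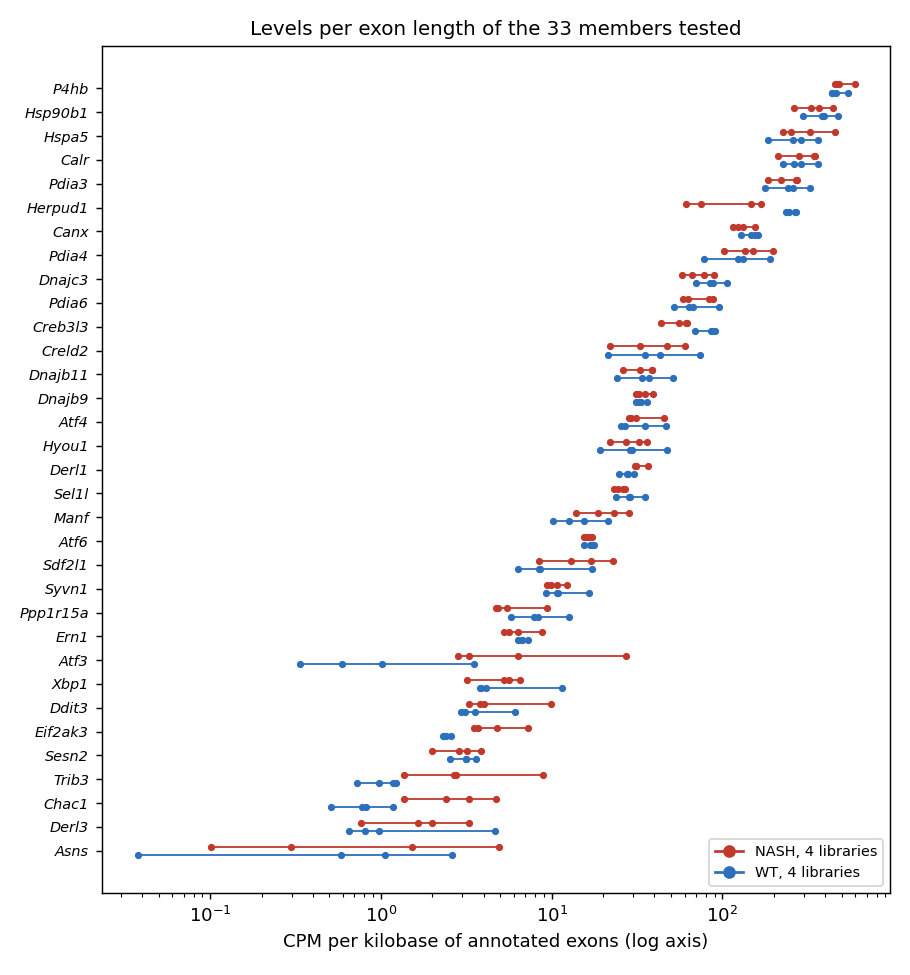
CPM per kilobase of annotated exons, on a log axis, of the 33 members tested, with the 4 NASH libraries above the 4 WT libraries for each gene and a line from the lowest to the highest. P4hb, Hsp90b1, Hspa5, Calr and Pdia3 lead, and the points of the groups overlap for most genes.

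Within each group the chaperones and isomerases moved together from library to library. Of the 15 genes, 10 had their highest NASH level in replicate 3 and the other 5 in replicate 1, while 13 had their lowest in replicate 2. In WT, 14 were highest in replicate 3 and 14 were lowest in replicate 4. The median deviation from each gene's own mean was 0.16, −0.39, 0.27 and −0.03 on the log2 scale in NASH replicates 1 to 4, and 0.02, −0.12, 0.43 and −0.43 in WT replicates 1 to 4. For all 15 genes the range within NASH and the range within WT were both wider than the difference of the group means. The median range was 0.70 in NASH and 0.88 in WT, against a median difference of 0.08 between group means, all on the log2 scale. Part of this pattern was shared by other ER genes. Of 22 translocation and signal peptide genes, 17 were highest within WT in replicate 3 and 14 were lowest within NASH in replicate 2. Of 24 other folding and glycan enzymes, 16 and 14 were. Their lowest WT levels were split, with 10 and 11 genes in replicate 4 and 11 of each list in replicate 2.

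Many regulators were highest in WT in another library. In WT replicate 4, where 14 chaperones were at their lowest, Xbp1, Atf4, Atf3, Ddit3, Asns, Chac1 and Ppp1r15a were at their highest WT level, as were all 13 immediate-early and heat-shock genes. Trib3 and Sesn2 were highest in WT replicate 3, as most chaperones were, and Atf6 in WT replicate 2. Of the 23 further ATF4 and CHOP targets, 8 were highest and 9 lowest in WT replicate 4. In NASH replicate 3, Atf4, Atf3, Ddit3, Trib3, Chac1, Asns and Ppp1r15a were highest together with 10 of the chaperones, and 11 of the 13 immediate-early and heat-shock genes were highest there too. The neutrophil and cholangiocyte marker sums were also highest in that library, at 68.2 and 730 CPM, against 2.36 to 20.2 and 87.2 to 391 CPM in the other NASH libraries. Spp1 made up most of the cholangiocyte sum, at 684 CPM in that library and 78.8 to 368 CPM in the other NASH libraries. Fos in that library was 14.7 CPM, against 4.37 to 4.74 CPM in the other NASH libraries. The part of these genes and marker sums in the differences between libraries was not tested.

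**Figure D4:**
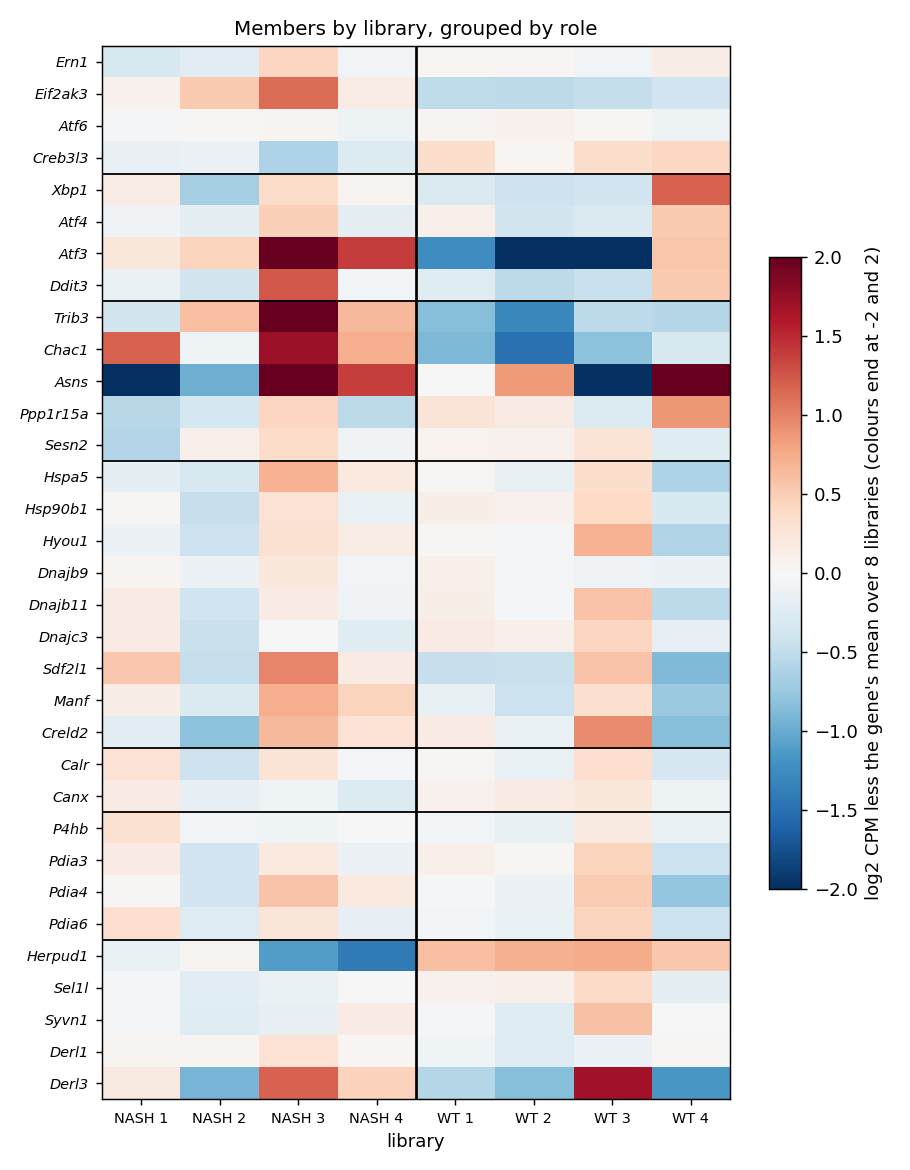
Log2 CPM of each of the 33 members tested, less the gene's mean over 8 libraries, for NASH replicates 1 to 4 (left of the line) and WT replicates 1 to 4 (right). Horizontal lines part the roles. Most chaperones and isomerases are blue in NASH replicate 2 and WT replicate 4 and red in NASH replicate 3 and WT replicate 3, where 14 of the 15 are at their highest WT level.

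Other genes of the pathway were read from 5 companion lists that hold 110 genes, of which 109 were in the table and 105 were tested. Of these, 12 were higher and 8 lower in NASH (19.0%, against 18.9% of all genes). Further targets of ATF4 and CHOP supplied 9 of the 12 higher genes. Of the 23 tested, 9 were higher (39.1%, against 12.9% of all genes), 0 were lower and the median log2 fold change was 0.61. The lists were chosen with earlier results of these data known, so this share describes the list and is no independent test. By sign alone, 19 rose and 4 fell. The largest fall was that of Cth, at 203 CPM in NASH and 434.5 CPM in WT. Its groups did not overlap, but it did not pass (log2 fold change −1.10, edgeR adjusted p = 0.0615). In this list 1 gene was lower with DESeq2, without NASH replicate 1, without NASH replicate 3, and without NASH replicate 3 and WT replicate 4 together. The macrophage marker sums were also higher in NASH and highest in NASH replicate 3, and their part in this list was not tested. Slc7a11, the cystine transporter subunit xCT, was read 403 times in NASH libraries and 0 times in WT libraries. Slc7a11 stood at 0.63, 0.78, 7.31 and 2.59 CPM in NASH replicates 1 to 4. If 3 counts are assumed in the whole WT group, the ratio of mean CPM is 103, and 48.4 without NASH replicate 3. These ratios do not take in the spread of the NASH libraries. Vldlr, a lipoprotein receptor, stood at 9.87 ± 4.86 CPM in NASH and 1.81 ± 0.77 CPM in WT (SD, n = 4 each), a log2 fold change of 2.45 ± 0.49 (SE, edgeR adjusted p = 0.0131).

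Psat1, an enzyme of serine synthesis, had 1.54, 2.30, 17.3 and 5.02 CPM in NASH replicates 1 to 4, against 0.63, 0.40, 0.38 and 0.42 CPM in WT replicates 1 to 4. All NASH libraries were above all WT libraries, and replicate 3 was far above the rest (log2 fold change 3.84 ± 0.78 SE, edgeR adjusted p = 0.0138). Without NASH replicate 3 it was 2.67 (edgeR adjusted p = 0.0114). Of the 23 ATF4 and CHOP targets tested, 15 had their highest NASH level in replicate 3 and 17 their lowest in replicate 1. The number higher was 8 without NASH replicate 3 and 3 with limma-voom, and it was 14, 3, 5, 4 and 6 without NASH replicate 1 or WT replicates 1, 2, 3 or 4. Of the 12351 to 12647 genes tested in these settings, 1597 were higher in the main analysis, 1228 without NASH replicate 3 and 1126 with limma-voom. That number was 2238, 636, 1020, 790 and 969 without NASH replicate 1 or WT replicates 1, 2, 3 or 4.

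The other 4 lists held fewer rises. Of 24 other folding and glycan enzymes, Dnajc10, a reductase of the ER, was higher (log2 fold change 0.71 ± 0.18 SE, edgeR adjusted p = 0.0262), and the isomerase genes Pdia5 (−0.58 ± 0.15 SE, edgeR adjusted p = 0.026) and Erp44 (−0.45 ± 0.14 SE, edgeR adjusted p = 0.0465) were lower. Of 18 other degradation genes, the ubiquitin ligase Rnf139, the HRD1 complex partner Faf2 and the mannosidase-like Edem3 were lower, with log2 fold changes of −0.41, −0.31 and −0.34, and none was higher. Of the annotated exon bases of Rnf139, 26.2% overlap Tatdn1 on the opposite strand or Gm49356 on the same strand, so its reads may be shared with them. Faf2 had 63.0 to 71.3 CPM in NASH and 80.3 to 87.9 CPM in WT, without overlap. No gene of this list passed without NASH replicate 3, NASH replicate 4 or any 1 of the WT libraries, and none was lower with library totals alone.

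Among 18 other regulators, the membrane-bound factors Creb3l1 and Creb3l2, relatives of Creb3l3, were higher. Creb3l1 had 2.80, 3.29, 6.44 and 4.52 CPM in NASH replicates 1 to 4, against 0.84, 1.31, 1.27 and 0.31 CPM in WT replicates 1 to 4. Its groups did not overlap (log2 fold change 2.19 ± 0.46 SE, edgeR adjusted p = 0.0144), and that of Creb3l2 was 0.80 ± 0.22 SE (edgeR adjusted p = 0.0323). The stress kinase Map3k5, the constitutive eIF2 phosphatase subunit Ppp1r15b and the exchange factor subunit Eif2b1 were lower, by log2 fold changes of −0.61, −0.55 and −0.45. Creb3l1 is known from matrix-secreting cells, and the stellate cell and fibroblast marker sums given above were higher in the same libraries, so their part in its rise was not tested. None of 22 translocation and signal peptide genes passed (median log2 fold change −0.03, smallest edgeR adjusted p = 0.157). Without WT replicate 1, no gene of these 4 lists passed. Of 8 omissions of a single library, Creb3l1 passed in 7, Pdia5 in 5, Dnajc10 and Map3k5 in 4 each, Ppp1r15b in 2, and Erp44, Creb3l2, Eif2b1, Rnf139, Faf2 and Edem3 in 1 each, that of NASH replicate 1.

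**Figure D5:**
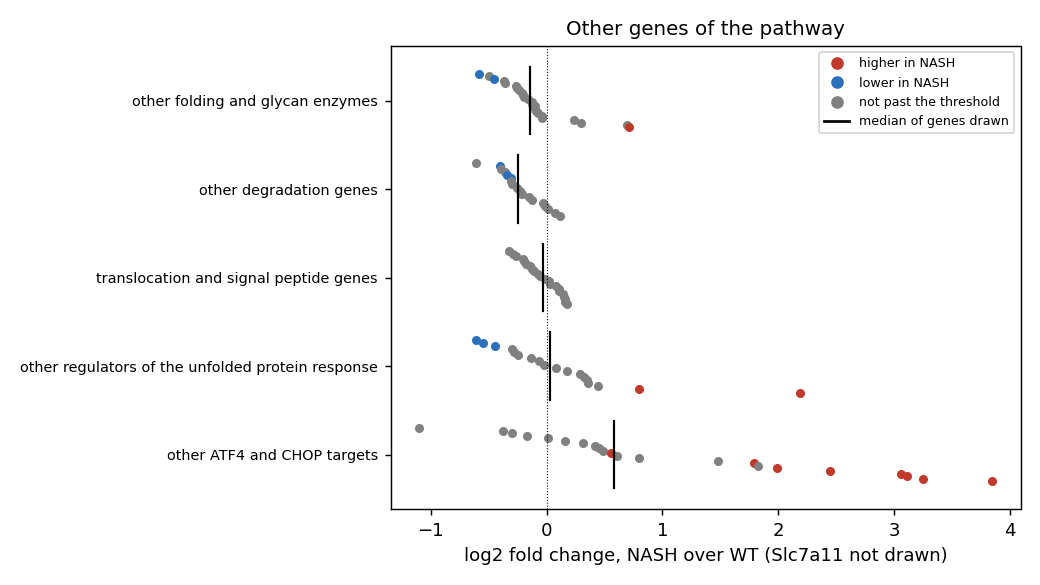
Log2 fold change of NASH over WT for each tested gene of the 5 companion lists, 1 point a gene, with the median of the genes drawn as a line. Red points are higher and blue points lower past the threshold, and Slc7a11, with 0 counts in WT, is not drawn. The ATF4 and CHOP targets reach furthest to the right, and the translocation genes have no coloured point.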

How the data were processed

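Gene counts from livers of 4 NASH and 4 WT libraries were used. The authors deposited raw counts per gene, from libraries made with a stranded total RNA kit, per the labels' protocols. HISAT2 and HTSeq 0.9.1, with builds mm9 and mm10 given without a role, are named in the submitters' processing notes; for the annotation and the strand setting, the sources used here name none. Another 8 per-sample columns were not used.

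Counts were filtered with filterByExpr, scaled by TMM and tested with edgeR 4.0.16 (glmQLFit and glmQLFTest, robust) in R 4.3.3 over 12351 genes, with Benjamini-Hochberg adjustment and a threshold of 0.05. The biological coefficient of variation was 29.2%. SEs were taken as the fold change over the root of F. Alternatives used DESeq2 1.42.0, limma 3.58.1 (voom), other scalings, no filter, a replicate block and omission of libraries. The scripts were tested on simulated data.

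Marker sums were compared by two-sided exact permutation tests. Coordinates and exon lengths came from GENCODE M21 on GRCm38. The text names all members, and of each companion list up to 3 genes in each direction with the largest F. The members and lists were chosen with earlier results of these data known.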

Additional observations from a re-analysis of the deposited data

Results flagged for a closer look

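Each group of 4 libraries was searched for a highest or lowest value whose gap to its neighbour exceeded the share of the group's whole range that Dixon's 95% critical value sets for 4 samples. Of 88 groups examined, 68 of them of members, 9 were found. Chance gives about 1 in 20 only for independent groups of normally spread values. CPM were not checked for such a spread, and several members were high in the same library, so that rate is no measure for the 9.

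NASH replicate 3 stood apart in 6 of them. It was high for Atf4 at 107 CPM (67.0 to 73.7 CPM in the other NASH libraries), Atf3 at 58.4 CPM (6.07 to 13.7 CPM), Ddit3 at 17.1 CPM (5.59 to 6.91 CPM), Ppp1r15a at 27.5 CPM (13.9 to 16.1 CPM) and Derl1 at 121 CPM (103 to 104 CPM). Its hepatocyte marker sum of 50530 CPM was low, against 102400 to 107800 CPM in the other NASH libraries.

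Xbp1 was high in WT replicate 4, at 37.3 CPM against 12.3 to 13.3 CPM in the other WT libraries. Derl3 was high in WT replicate 3, at 9.25 CPM against 1.29 to 1.94 CPM in the other WT libraries. The plasma cell and B cell marker sum was high in NASH replicate 4, at 254 CPM against 160.5 to 170 CPM in the other NASH libraries. Sdc1 made up 86.7 to 96.5% of these sums in the 8 libraries, and without it the sums were 9.37, 5.66, 22.5 and 10.6 CPM in NASH replicates 1 to 4, highest in replicate 3.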

How the results depend on the processing

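Over all genes, 2338 passed, against 3550 with DESeq2's Wald test, 821 to 3742 when a library was left out, and 919 without NASH replicate 3 and WT replicate 4 together, a setting chosen after seeing the data. Members higher numbered 3, 5 with library totals alone and 0 to 4 with a library left out. Members lower numbered 2, 1 with library totals alone, 0 to 2 with a library left out, and 0 without both libraries. Other pathway genes higher numbered 12, against 23 with library totals alone, 6 with limma-voom, 3 to 18 with a library left out and 5 without both. Other pathway genes lower numbered 8, against 0 with library totals alone, 5 with no filter, 0 to 12 with a library left out and 2 without both. The members' median log2 fold change of 0.00024 became 0.40 with library totals alone and −0.18 to 0.15 with a library left out. The cause was not tested.

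Same-numbered NASH and WT libraries did not deviate together (correlations 0.0344, −0.139, −0.144 and −0.0157), so the numbers were not taken to pair them. With the replicate block, 618 genes passed, 1 member was higher and 0 were lower, and 3 other pathway genes were higher and 1 lower; Asns turned to −0.41. Adjusted p with the block was 0.0545 for Eif2ak3, 0.094 for Creb3l3, 0.0657 for Trib3 and 0.059 for Herpud1, and 0.0461 for Chac1, which still passed.

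With library totals alone the sign turned for Ern1 (0.35), Atf6 (0.33), Xbp1 (0.21), Sesn2 (0.34), Hsp90b1 (0.24), Hyou1 (0.30), Dnajb11 (0.27), Dnajc3 (0.10), Creld2 (0.32), Canx (0.18), Pdia3 (0.29), Sel1l (0.15) and Syvn1 (0.19), none of which passed in the main analysis. Atf4 moved to −0.0074 with DESeq2 size factors and −0.011 with DESeq2 or no filter. With libraries left out, log2 fold changes crossed 0 for Ern1 (−0.25 to 0.032), Xbp1 (−0.34 to 0.38), Atf4 (−0.20 to 0.20), Ddit3 (−0.091 to 0.72), Asns (−0.75 to 1.62), Sesn2 (−0.31 to 0.081), Hspa5 (−0.18 to 0.37), Hyou1 (−0.39 to 0.18), Dnajb9 (−0.054 to 0.088), Dnajb11 (−0.33 to 0.10), Creld2 (−0.59 to 0.28), Calr (−0.13 to 0.19), P4hb (−0.018 to 0.15), Pdia3 (−0.31 to 0.063), Pdia4 (−0.20 to 0.40), Pdia6 (−0.12 to 0.25), Syvn1 (−0.27 to 0.028) and Derl3 (−0.56 to 1.25). At 4 libraries a group, the width of the intervals limits what can be told.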
